A study of Mus musculus with 6 samples.

Results

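The dentate granule cell genes examined were Prox1, C1ql2, C1ql3, Dsp, Tdo2, Trpc6, Calb1, Stxbp6, Plk5 and Npnt, 10 of the 24935 genes in the deposited RNA-sequencing table. They were chosen by gene symbol as genes known for their expression in granule cells, and each matched 1 row. Earlier results of these data were known when they were chosen. The RNA came from the left hippocampus of C57BL/6 mice at postnatal day 14 (P14). The hyperoxia-exposed pups (n = 3) were kept with their dams in 85% oxygen at normal pressure from P2 to P14. The air-exposed pups (n = 3) were kept with their dams in room air over the same days. The labels name no genetic change and no other agent in either group, but the deposited comparison names both groups with the word oil, which no source used here explains, so whether a vehicle was given is not known. The pups were of both sexes. Libraries are named by their group and the number in the column header. Every direction given, for each gene named, rests on the group in that header. The sources conflict here: the study heads its mRNA fold changes as hyperoxia against air, and their sign is opposite to hyperoxia minus air taken from the headers. The deposited comparison shares that opposite sign, but by its name it sets room air against 85% oxygen. Which reading is right was not settled, and if the headers were exchanged every fall given below would be a rise and every rise a fall. The labels do not tell which pups were littermates, so an effect of litter cannot be told apart from the exposure.

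Granule cells are the principal neurons of the dentate gyrus. They receive input from the entorhinal cortex, and their axons, the mossy fibres, contact CA3 pyramidal cells and hilar mossy cells. In the mouse most granule cells are born in the first postnatal weeks, and some are added throughout adult life. The homeobox transcription factor Prox1 is required for granule cells to take and keep their identity. Mature granule cells contain much of the calcium buffer calbindin, and their mossy fibre terminals release C1q-like proteins that organise synapses on CA3 dendrites.

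With the groups as in the column headers, 7 of the 10 granule cell genes fell in hyperoxia-exposed mice, none rose and 3 did not pass the test. The largest decreases were those of Plk5, C1ql2 and Trpc6, which were at 41.1%, 42.6% and 46.8% of their mean in air-exposed mice. Dsp, Tdo2, Stxbp6 and Calb1 fell by less, and Prox1, Npnt and C1ql3 did not pass. A gene was called when its adjusted p was under 0.05 in limma, a linear model fitted to log2(normalised count + 1) of the 17778 genes whose mean reached 10, with Benjamini-Hochberg adjustment over those genes. By the same rule 15.6% of all genes tested were lower in hyperoxia, and 30.5% were called in either direction. The log2 fold change of the 10 genes (hyperoxia minus air) had a median of -0.60, against -0.01 over all genes tested, and all 10 values were below 0. In 8 of the 10 genes all 3 hyperoxia libraries lay under all 3 air libraries, which was so for 23.8% of all genes tested. A second granule cell list, given below, had a median log2 fold change of -0.06. The 10 genes were chosen with earlier results known, so the shares given beside them describe the list and do not test it. edgeR's quasi-likelihood test on the recovered read counts called 6 of the 10 lower, beside 15.3% of all genes, and DESeq2 also called 6, beside 15.1%. Dsp was the gene lost in both.

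Promoter sequences are shown for the 3 genes with the largest decreases, as the stretch of 250 bases before the annotated start. They are from RefSeq on GRCm38.p6, each on the plus strand and written 5′ to 3′, with E boxes (CANNTG, the core motif bound by basic helix-loop-helix factors such as NeuroD1) in capitals. The C1ql2 window lies at chr1:120340332-120340581, the Trpc6 window at chr9:8543892-8544141 and the Plk5 window at chr10:80356209-80356458.
C1ql2: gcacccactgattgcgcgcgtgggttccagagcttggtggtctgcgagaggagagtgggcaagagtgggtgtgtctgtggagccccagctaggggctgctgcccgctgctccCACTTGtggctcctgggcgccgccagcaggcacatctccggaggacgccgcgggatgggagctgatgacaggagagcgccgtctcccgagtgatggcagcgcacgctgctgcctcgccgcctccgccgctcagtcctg
Trpc6: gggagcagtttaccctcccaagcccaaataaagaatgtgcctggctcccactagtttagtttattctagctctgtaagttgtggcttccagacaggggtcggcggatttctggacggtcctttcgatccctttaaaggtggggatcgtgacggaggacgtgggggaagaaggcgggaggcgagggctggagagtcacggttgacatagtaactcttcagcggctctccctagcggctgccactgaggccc
Plk5: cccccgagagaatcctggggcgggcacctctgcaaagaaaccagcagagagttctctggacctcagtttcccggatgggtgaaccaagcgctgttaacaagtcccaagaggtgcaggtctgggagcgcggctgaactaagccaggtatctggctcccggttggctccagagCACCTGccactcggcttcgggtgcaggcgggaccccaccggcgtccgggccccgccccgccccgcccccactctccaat
The C1ql2 window held 1 E box, which began 138 bases before the start, and the Plk5 window held 1, which began 79 bases before it. The Trpc6 window held none. Of the 10 genes 9 had an entry and these had 11 windows, of which 6 (54.5%) held an E box, while 66.2% of all 32851 RefSeq promoter windows of the same length held one. The cyclic AMP response element TGACGTCA was in the window of 0 of the 9 genes, beside 1.55% of all windows. Both motifs read the same on both strands, and neither overlapped the other here. A match is a description of the letters and does not show that a factor binds there.

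**Figure D1:**
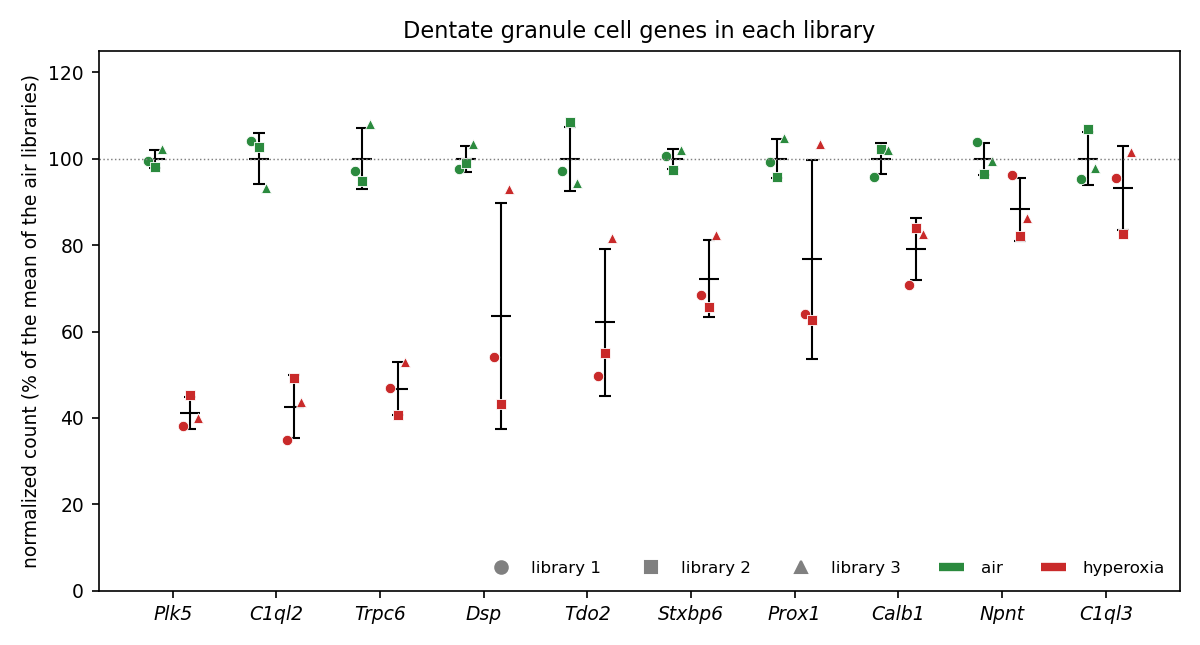
Normalised count of each granule cell gene in each library, as a percentage of the mean of the 3 air libraries (vertical axis from 0). Green symbols are air and red symbols hyperoxia, the symbol shape gives the library number, and bars are the mean ± SD (n = 3). Plk5, C1ql2 and Trpc6 lie between 34.8% and 52.9% in every hyperoxia library, whereas hyperoxia library 3 lies at 93.0% for Dsp and 103.3% for Prox1.

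Some properties of the libraries bear on these values. The read totals recovered from the table were 30384052 to 38746972 per library, and replicate libraries of a group differed by more than counting noise (chi-square per gene 6.54 to 47.2). Hyperoxia library 3 had 8154 normalised counts over 6 choroid plexus genes, against 487 to 1407 in the other 5 libraries, and none of these genes was at 0 in it. Its level of Ttr, the choroid plexus transthyretin gene, was 7454, against 167 to 887 elsewhere. Summed thalamus markers were at 3800 to 4067 in air and 5958 to 7582 in hyperoxia, with 4 of 6 genes higher. Meningeal fibroblast markers were at 3175 to 3979 and 4169 to 6885, with 4 of 5 higher, and neocortex markers at 7698 to 8593 and 8488 to 11580, with 3 of 6 higher. The part of these differences in the results below was not tested. Each group held 1 library with high Xist and 2 with high Y-linked genes. As these are bulk samples, fewer granule cells and less RNA per granule cell cannot be told apart.

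Prox1 encodes the homeobox factor that defines granule cells. It lies on the minus strand at chr1:190118035-190170714 (coordinates throughout are of GRCm38, GENCODE M21). Its normalised counts were 8194, 7919 and 8665 in air libraries 1 to 3 and 5298, 5181 and 8533 in hyperoxia libraries 1 to 3. The first 2 hyperoxia libraries were at 64.2% and 62.7% of the air mean and the third was at 103.3%, so the groups overlapped. The log2 fold change was -0.42 (SE 0.17, adjusted p = 0.081, limma). Its 95% interval was -0.79 to -0.05, and the exact permutation test over the 6 libraries gave p = 0.3 (two-sided), where the smallest possible p is 0.1. Prox1 was called under 2 of the 16 alternative settings and not under the other 14. It did not pass with edgeR (adjusted p = 0.11) or DESeq2 (adjusted p = 0.063). Without hyperoxia library 1 its log2 fold change was -0.31 (adjusted p = 0.25, limma). Without hyperoxia library 3 the log2 fold change was -0.66 and the adjusted p was 3.6e-04. A correction for gene length and GC content also passed the threshold (-0.68, adjusted p = 0.0019), under which 19.9% of all genes tested were called lower, against 15.6% without it.

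The antisense transcript Prox1os overlaps an exon of Prox1 on the other strand. Normalised counts of the gene were 114, 151 and 144 in air and 61.0, 63.4 and 93.6 in hyperoxia, without overlap. It fell by 0.91 on the log2 scale (SE 0.20, adjusted p = 0.0083, limma). The libraries were made strand-specific, but no source used here names the strand setting of the counting, so some reads of the pair may be counted for the other gene.

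The 5 other genes whose log2 values followed Prox1 most closely over the 6 libraries were Klhl29 (Pearson r = 0.997), Sbk3 (0.996), M5C1000I18Rik (0.992), Tra2b (0.991) and Nr3c2 (0.990). None of these 5 was called. Nr3c2, which encodes the mineralocorticoid receptor, was at 5592, 5169 and 5474 in air and 3698, 3567 and 5320 in hyperoxia. Hyperoxia library 3 was in the air range for Nr3c2 as it was for Prox1. An r over 0.95 was found for 94 genes tested outside the 10. Among the granule cell genes r with Prox1 was highest for Dsp (0.975), Tdo2 (0.914) and Stxbp6 (0.901), and lowest for Plk5 (0.636) and Npnt (0.447). These coefficients describe 6 libraries that share the exposure contrast, and no test was made of them.

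C1ql2 encodes a secreted C1q-like protein of mossy fibre terminals that helps recruit kainate receptors to the synapse. It lies on the plus strand at chr1:120340582-120343174 and its upstream window is the first shown above. Its normalised counts were 2433, 2399 and 2179 in air and 814, 1151 and 1020 in hyperoxia. The groups were far apart, and the highest hyperoxia library was at 49.3% of the air mean. Its log2 fold change was -1.24 (SE 0.12, adjusted p = 3.5e-04, limma, 95% interval -1.51 to -0.98). It ranked 148 from the lowest of the 17778 genes and was called under all 16 alternative settings.

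C1ql3 encodes the close relative that is found with C1ql2 in mossy fibre terminals and that also occurs in other forebrain neurons. The gene is on the minus strand at chr2:13003457-13011806. The libraries held normalised counts of 622, 698 and 639 in air and 623, 539 and 663 in hyperoxia. Hyperoxia libraries 1 and 3 were within the air range. The log2 fold change was -0.10 (SE 0.10, adjusted p = 0.45, limma), with a 95% interval of -0.33 to 0.12, and C1ql3 was called under 0 of the 16 alternatives. The interval of C1ql2 lay wholly below that of C1ql3, although the difference between the genes was not itself tested. Exons of C1ql3 overlap the predicted genes Gm37824 and Gm37811 on the other strand.

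The rest of the C1q-like and cerebellin family, secreted proteins that bind presynaptic neurexins or adhesion receptors and organise synapses, went in more than 1 direction. Of the 7 family members tested 2 were higher and 1, C1ql2, was lower. Cbln1 was at 288, 194 and 271 in air and 1142, 822 and 317 in hyperoxia (log2 fold change 1.43, SE 0.38, adjusted p = 0.021, limma). Cbln2 was at 201, 205 and 211 in air and 523, 478 and 430 in hyperoxia (1.21, SE 0.11, adjusted p = 2.9e-04). Both cerebellins were higher in every hyperoxia library, Cbln1 by little in library 3. C1ql1 (-0.26, adjusted p = 0.093), Cbln3 (0.63, adjusted p = 0.18) and Cbln4 (0.78, adjusted p = 0.056) did not pass, and C1ql4 was not analysed here.

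Trpc6 encodes a cation channel opened by diacylglycerol downstream of phospholipase C, which in the hippocampus is most abundant in granule cells. Trpc6 is on the plus strand at chr9:8544142-8680741. Its normalised counts were 432, 422 and 481 in air and 209, 181 and 236 in hyperoxia. Every hyperoxia library was at or below 52.9% of the air mean. Its log2 fold change was -1.10 (SE 0.12, adjusted p = 5.5e-04, limma, 95% interval -1.37 to -0.83), and Trpc6 was called under all 16 alternatives.

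Relatives of Trpc6 among the TRPC channels, which form cation channels with it or on their own, had values on both sides of 0. Their log2 fold changes are given with limma's adjusted p. Trpc1 (0.28, adjusted p = 0.062), Trpc4 (-0.18, adjusted p = 0.0998), Trpc5 (0.93, adjusted p = 0.069) and Trpc7 (-0.52, adjusted p = 0.21) did not pass. Trpc5 was at 522 and 677 in hyperoxia libraries 1 and 3 but at 219 in library 2, inside the air range of 178 to 259. Trpc2 was not analysed here.

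Plk5 encodes a polo-like kinase of post-mitotic cells, which lacks much of the kinase domain of its relatives and is expressed in neurons. Its position is chr10:80356459-80365489 on the plus strand. Its normalised counts were 217, 214 and 223 in air and 83.1, 98.5 and 86.9 in hyperoxia. The 3 hyperoxia libraries lay close together, at 38.2% to 45.2% of the air mean. The log2 fold change was -1.28 (SE 0.13, adjusted p = 3.9e-04, limma, 95% interval -1.56 to -0.995), the lowest of the 10 genes and rank 135 of all genes tested. Plk5 was called under all 16 alternatives. It rested on 87 to 230 reads per library, and at 87 reads counting alone gives a CV of 10.7%, beside 8.97% between the hyperoxia libraries.

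The other polo-like kinases, which act in mitosis and centrosome copying or, for Plk2 and Plk3, in stress and activity responses, were not called lower. Plk4, the kinase that starts centriole duplication, was at 107, 89.5 and 91.4 in air and 174, 130 and 153 in hyperoxia (log2 fold change 0.65, SE 0.15, adjusted p = 0.012, limma). Plk1 (-0.06, adjusted p = 0.76), Plk2 (-0.15, adjusted p = 0.30) and Plk3 (-0.21, adjusted p = 0.11) did not pass. Plk3 was at 551, 548 and 588 in air and 452, 517 and 494 in hyperoxia, so its groups did not overlap although it was not called. Plk5 was thus the 1 of 5 called lower and Plk4 the 1 of 5 called higher.

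**Figure D2:**
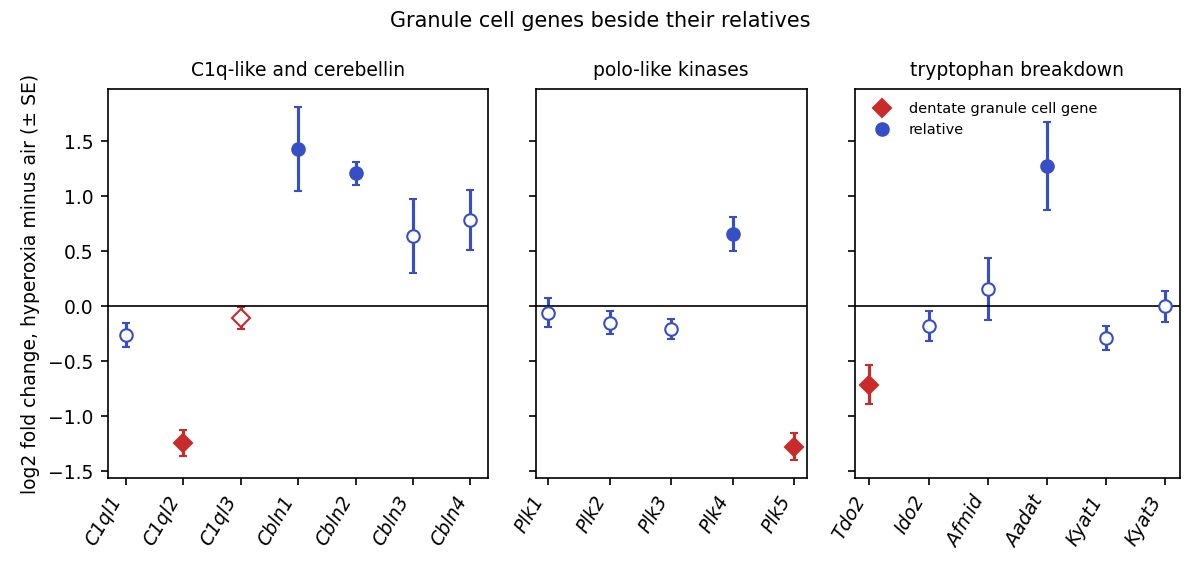
Log2 fold change (hyperoxia minus air, ± SE, n = 3 per group) of granule cell genes (red diamonds) and their relatives (blue circles) in 3 families, with filled symbols for an adjusted p under 0.05 in limma. C1ql2, Plk5 and Tdo2 are filled and below 0, and Cbln1, Cbln2, Plk4 and Aadat are filled and above 0.

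Dsp encodes desmoplakin, a plakin that ties intermediate filaments to desmosomes in epithelia and heart and that in the forebrain marks granule cells. Dsp is on the plus strand at chr13:38151294-38198577. The libraries held normalised counts of 1839, 1865 and 1949 in air and 1021, 816 and 1753 in hyperoxia. Hyperoxia libraries 1 and 2 were at 54.2% and 43.3% of the air mean, while library 3 was at 93.0%, just below the air range. Its log2 fold change was -0.73 (SE 0.22, adjusted p = 0.033, limma, 95% interval -1.23 to -0.23), and without hyperoxia library 3 it was -1.04. The call did not hold with edgeR (adjusted p = 0.050, above the threshold before rounding), with DESeq2 (adjusted p = 0.14) or with limma run without the mean-variance trend (adjusted p = 0.10). It was also lost without any 1 of the air libraries (adjusted p = 0.093 to 0.096) and without hyperoxia library 1 (adjusted p = 0.11).

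Of the 7 tested desmosome and plakin partners of desmoplakin 2 fell and none rose, with a median log2 fold change of -0.03. Ppl, which encodes periplakin, was at 69.7, 73.3 and 82.1 in air and 45.1, 36.2 and 58.9 in hyperoxia (-0.70, SE 0.21, adjusted p = 0.032, limma). Pkp2, the plakophilin that links desmoplakin to desmosomal cadherins, was at 1102, 1299 and 1215 in air and 693, 763 and 922 in hyperoxia (-0.61, SE 0.11, adjusted p = 0.0043). Neither gene overlapped between the groups, and in both hyperoxia library 3 was the highest of its group. Pkp1 and Pkp3 were below the minimum level.

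Tdo2 encodes tryptophan 2,3-dioxygenase, which opens the indole ring in the first step of the kynurenine pathway, and in the hippocampus marks granule cells. The gene is on the minus strand at chr3:81957090-81976202. Its normalised counts were 238, 266 and 231 in air and 122, 135 and 200 in hyperoxia. Library 3 was again the highest hyperoxia library, at 81.6% of the air mean, and the groups did not overlap. The log2 fold change was -0.71 (SE 0.18, adjusted p = 0.015, limma, 95% interval -1.11 to -0.31). Tdo2 no longer passed without air library 1 (adjusted p = 0.054), air library 2 (adjusted p = 0.069) or hyperoxia library 1 (adjusted p = 0.058).

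Of the 6 tryptophan breakdown genes tested Tdo2 fell and Aadat rose. Aadat, which makes kynurenic acid from kynurenine, was at 3.77, 8.14 and 5.13 in air and 12.4, 13.6 and 18.3 in hyperoxia (log2 fold change 1.27, SE 0.40, adjusted p = 0.038, limma). These are levels of few reads, and the groups did not overlap. Ido2 (-0.18, adjusted p = 0.35), Afmid (0.15, adjusted p = 0.71), Kyat1 (-0.29, adjusted p = 0.077) and Kyat3 (-0.00, adjusted p = 0.99) did not pass. Ido1, Kmo, Kynu and Haao were below the minimum level.

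Calb1 encodes calbindin-D28k, the calcium buffer of mature granule cells that also occurs in CA1 pyramidal cells and some interneurons. Its position is chr4:15881264-15908064 on the plus strand. Normalised counts of the gene were 3368, 3595 and 3583 in air and 2490, 2949 and 2902 in hyperoxia. The groups did not overlap, and hyperoxia library 1 was the lowest, at 70.8% of the air mean. Its log2 fold change was -0.34 (SE 0.08, adjusted p = 0.013, limma, 95% interval -0.53 to -0.16), the smallest decrease among the 7 genes called. Calb1 no longer passed without air library 2 (adjusted p = 0.063), air library 3 (adjusted p = 0.055) or hyperoxia library 1 (adjusted p = 0.050, above the threshold before rounding).

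Among 6 EF-hand calcium-binding genes 3 fell and none rose, with a median log2 fold change of -0.37. Besides Calb1 these were Pvalb, the buffer of fast-spiking interneurons, at 643, 693 and 660 in air and 324, 459 and 319 in hyperoxia (-0.88, SE 0.14, adjusted p = 0.0021, limma). The other was the glial gene S100b, at 2757, 3159 and 3177 in air and 2092, 2873 and 2018 in hyperoxia (-0.40, SE 0.13, adjusted p = 0.043). The groups overlapped for S100b and not for Pvalb.

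Stxbp6 encodes amisyn, a syntaxin-binding protein that competes with vesicle SNAREs and limits fusion. Stxbp6 is on the minus strand at chr12:44852484-45074709. Its normalised counts were 3341, 3239 and 3389 in air and 2277, 2183 and 2737 in hyperoxia. The groups did not overlap, and library 3 was the highest hyperoxia library, at 82.4% of the air mean. The log2 fold change was -0.48 (SE 0.09, adjusted p = 0.0047, limma, 95% interval -0.68 to -0.27), and Stxbp6 was called under all 16 alternatives.

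Of the 11 relatives and partners of amisyn tested, itself included, 4 fell and 1 rose, with a median log2 fold change of -0.08. Stxbp5l, a tomosyn, was at 354, 347 and 423 in air and 1065, 456 and 1488 in hyperoxia (1.26, SE 0.34, adjusted p = 0.021, limma). Stxbp3, a Munc18 protein of the plasma membrane, was at 892, 923 and 870 in air and 580, 642 and 666 in hyperoxia (-0.51, SE 0.08, adjusted p = 0.0026). Snap25, the plasma membrane SNARE of nerve terminals in general, had a log2 fold change of -0.40 (SE 0.09, adjusted p = 0.011). Stxbp5l was scattered in hyperoxia, with library 2 just above the air range.

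Npnt encodes nephronectin, an extracellular matrix ligand of the integrin α8β1. It lies on the minus strand at chr3:132881745-132950291. The libraries held normalised counts of 1851, 1721 and 1774 in air and 1717, 1464 and 1538 in hyperoxia. The groups stayed apart, but the highest hyperoxia library lay only just under the lowest air library. Its log2 fold change was -0.18 (SE 0.08, adjusted p = 0.11, limma), with a 95% interval of -0.36 to -0.00. Npnt was called only under the length and GC correction (-0.24, adjusted p = 0.020) among 16 alternatives.

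Of the 7 nephronectin receptor genes and relatives tested 3 rose and 1 fell. Itga8, the α8 integrin subunit that binds nephronectin, was at 563, 608 and 602 in air and 413, 349 and 461 in hyperoxia (-0.54, SE 0.11, adjusted p = 0.0068, limma). Its partner Itgb1 was at 3135, 3311 and 3394 in air and 4454, 4573 and 4895 in hyperoxia (0.50, SE 0.07, adjusted p = 0.0014). Frem2, a basement membrane protein gene, was at 190, 141 and 170 in air and 281, 290 and 325 in hyperoxia (0.84, SE 0.13, adjusted p = 0.0022). Itga8 was lower and Itgb1 and Frem2 were higher in every hyperoxia library.

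**Figure D3:**
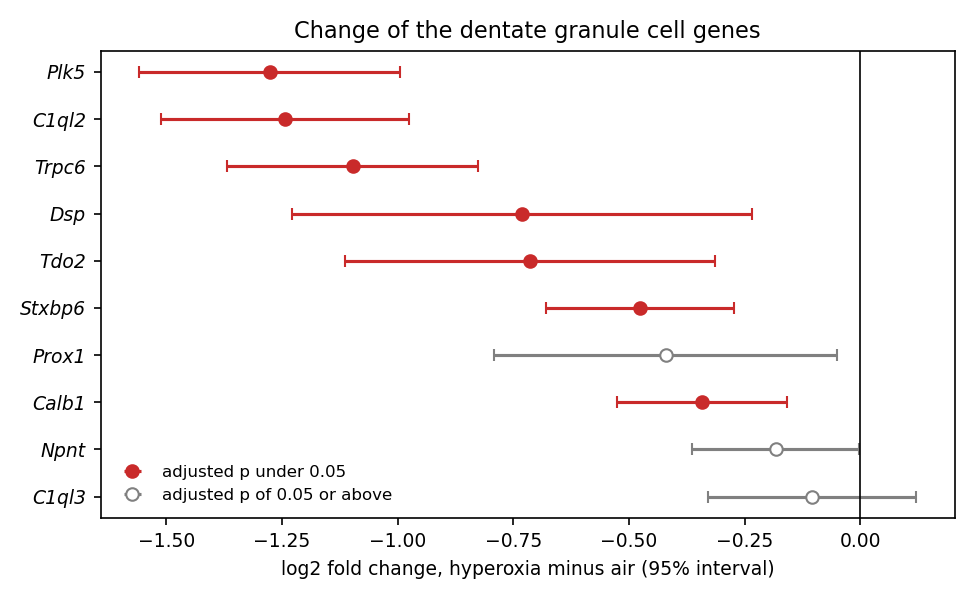
Log2 fold change of each granule cell gene (hyperoxia minus air) with its 95% interval from limma (n = 3 per group), with filled red symbols for an adjusted p under 0.05. The values run from -1.28 for Plk5 to -0.10 for C1ql3, and the interval of C1ql3 crosses 0.

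The 10 genes were not alike in how the hyperoxia libraries spread. Hyperoxia library 3 was the highest of its group for 6 of the 10 genes and the lowest for none, while library 1 was the lowest for 4 and library 2 for 6. Summed over the 10 genes, hyperoxia libraries 1 to 3 were at 64.7%, 64.9% and 86.8% of the air mean. Without hyperoxia library 3 the number of genes called was 8, since Prox1 was added, beside 14.7% of all genes called lower in that fit. In 9 of the 10 the remaining hyperoxia libraries lay under all air libraries, beside 28.5% of all genes with these 5 libraries. For C1ql2 and Plk5 library 3 was in the middle of its group, at 43.7% and 39.9% of the air mean.

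Levels were compared between genes as normalised counts per kilobase of exon. In air the order was C1ql2 (1169), Prox1 (984), Calb1 (725), Stxbp6 (627), Npnt (355), C1ql3 (257), Dsp (195), Trpc6 (87.9), Plk5 (81.3) and Tdo2 (63.1). The ranges of neighbours in this order did not overlap, although those of Trpc6 and Plk5 nearly met. In hyperoxia Prox1 came first (755), followed by Calb1 (574), C1ql2 (498) and Stxbp6 (453), and the ranges of Calb1, C1ql2 and Stxbp6 overlapped. At the low end were Trpc6 (41.1), Tdo2 (39.2) and Plk5 (33.4), whose ranges also overlapped. C1ql2 thus went from the highest level per kilobase to the third place, and Plk5 from the ninth to the last.

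A second list of 10 granule cell genes did not share the pattern of the first. It had 2 genes lower and 2 higher, with a median log2 fold change of -0.06. Lct, the lactase gene known as a granule cell marker in mouse, was at 1927, 1978 and 1688 in air and 915, 806 and 1502 in hyperoxia (-0.85, SE 0.19, adjusted p = 0.011, limma). Dock10, a guanine nucleotide exchange factor, was at 2738, 3016 and 3035 in air and 1539, 1475 and 2194 in hyperoxia (-0.78, SE 0.14, adjusted p = 0.0033). As for Dsp and Tdo2, hyperoxia library 3 was the highest of its group for both. Gabrd, the δ subunit of extrasynaptic GABA-A receptors, had a log2 fold change of 0.40 (SE 0.13, adjusted p = 0.044), with overlapping groups. The other list gene that rose was the anchoring protein gene Akap7, and the remaining 6 did not pass.

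Transcription factors of the granule cell lineage included more decreases than increases. Of 10 genes 5 fell and 1, Id2, rose, with a median log2 fold change of -0.37. Eomes, which marks the intermediate progenitors, was at 240, 216 and 233 in air and 99.9, 111 and 193 in hyperoxia (-0.83, SE 0.22, adjusted p = 0.019, limma). Emx2, a homeobox gene needed for the dentate gyrus to form, was at 1104, 1112 and 1125 in air and 598, 658 and 781 in hyperoxia (-0.72, SE 0.10, adjusted p = 0.0014). Neurod2, a basic helix-loop-helix factor of excitatory neurons in general, was at 8891, 7981 and 8339 in air and 4688, 4944 and 5852 in hyperoxia (-0.71, SE 0.09, adjusted p = 0.0010). None of the 3 overlapped between the groups. Neurod1, needed for granule cell differentiation, and Bcl11b also fell.

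Among 6 genes of immature granule cells Neurod1 fell and Dcx rose. Neurod1 was at 2618, 2351 and 2409 in air and 1347, 1533 and 1652 in hyperoxia (log2 fold change -0.71, SE 0.09, adjusted p = 9.8e-04, limma). Dcx, the doublecortin gene of migrating young neurons, was at 2870, 2712 and 2730 in air and 4131, 3636 and 5318 in hyperoxia (0.64, SE 0.12, adjusted p = 0.0048). The remaining 4 genes did not pass, and the median of the 6 was -0.05.

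The mossy fibre synapse, which granule cells form on CA3 neurons, was represented by 12 genes, of which 3 fell and none rose (median log2 fold change -0.14). Rab3a, a vesicle GTPase required for mossy fibre long-term potentiation, was at 28072, 24655 and 23367 in air and 18997, 21607 and 15778 in hyperoxia (-0.44, SE 0.12, adjusted p = 0.021, limma). Grik4, the high-affinity kainate receptor subunit enriched in CA3, was at 3072, 3056 and 2839 in air and 1984, 2483 and 2616 in hyperoxia (-0.35, SE 0.10, adjusted p = 0.030). Syt7, a slow calcium sensor of release, had a log2 fold change of -0.21 (SE 0.07, adjusted p = 0.047). These genes are also expressed by neurons outside the dentate gyrus.

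The marker lists of the neighbouring hippocampal cells had calls in both directions. Among 4 mossy cell genes Calcrl rose (0.82, adjusted p = 0.0012, limma) and Csf2rb2 fell (-0.73, adjusted p = 0.0036). Among 5 CA2 genes Rgs14 fell (-0.86, adjusted p = 4.5e-04) and Cacng5 rose (0.31, adjusted p = 0.033). Among 5 CA3 genes Iyd (-0.99, adjusted p = 0.0059) and Grik4 fell and Coch rose (0.98, adjusted p = 0.0023). Medians were 0.04, 0.08 and -0.18 for mossy cells, CA2 and CA3. All genes of these 3 lists and of the granule cell lists were detected in each library.

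Of the lists that are not specific to the hippocampus, 7 genes of neurons in general had 4 lower and 2 higher, with a median of -0.31. Oligodendrocytes had 5 of 6 genes lower (median -0.70), the only cell type list besides the 10 granule cell genes with a median below -0.5. The second granule cell list had a median of -0.06. Genes were called higher and none lower in the lists of astrocytes (3 of 6), oligodendrocyte precursors (2 of 5), microglia (1 of 6), endothelial cells (3 of 5), mural cells (1 of 5) and Cajal-Retzius cells (2 of 5). GABAergic interneurons had 1 higher and 1 lower of 7, and choroid plexus 1 higher of 6. Over the list sums, the 10 granule cell genes were below the air range in all 3 hyperoxia libraries. So were those of CA2 cells, neurons in general and oligodendrocytes. In air Rgs14, the only CA2 gene called lower, held 2663 to 2684 of the CA2 sums of 4090 to 4182. The second granule cell list was at 26778 to 26842 in air and at 26866, 23795 and 28078 in hyperoxia libraries 1 to 3. Whether the share of RNA from thalamus, meninges, neocortex or glia bears on the granule cell values was not tested.

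**Figure D4:**
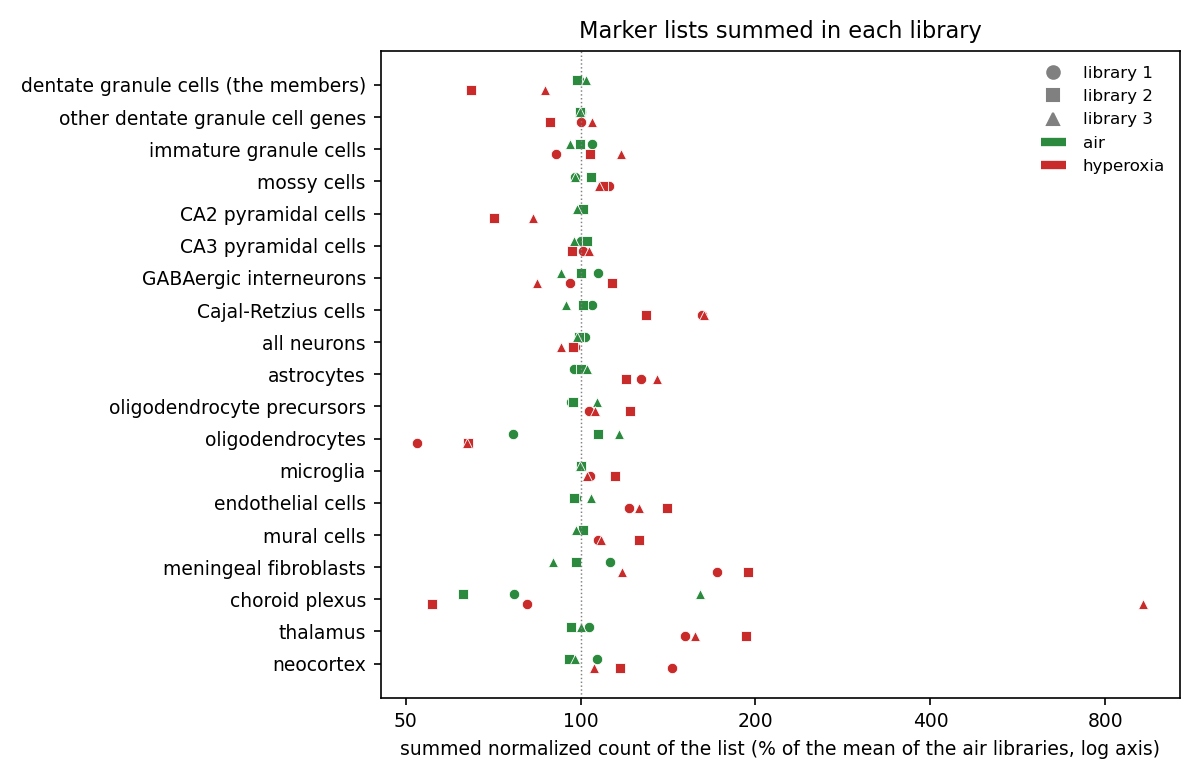
Summed normalised count of marker lists in each library, as a percentage of the mean of the air libraries (log axis). Air is in green, hyperoxia in red and the symbol shape gives the library number. The list of CA1 pyramidal cells is not drawn. The 10 granule cell genes sum to 64.7%, 64.9% and 86.8% in the hyperoxia libraries, and the choroid plexus genes of hyperoxia library 3 stand at 930.3%.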

How the data were processed

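RNA was sequenced from 6 left hippocampi, 3 of air-exposed and 3 of hyperoxia-exposed mice, as strand-specific polyA libraries with paired-end reads. The deposited values are a signal made by the authors: read counts per gene divided by 1 DESeq2 size factor per library. The submitters' processing notes name FastQC, STAR 2.5.3a, HTSeq and DESeq2. No source used here gives the genome build, annotation or strand setting. Whole reads were recovered from the steps between low values, and 100% of values came out whole within 0.01. A second deposited table holds only the authors' own comparison (fold changes, their errors, p-values, the Wald statistic and a mean), and was not used. Its name sets room air against 85% oxygen.

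Values were tested as log2(value + 1) with limma 3.58.1 and its mean-variance trend in R 4.3.3, two-sided, for 17778 genes with a mean of at least 10. Fold changes are on that scale, which understates changes of low genes. Adjustment followed Benjamini and Hochberg over these genes, with a threshold of 0.05. edgeR 4.0.16 (TMM) and DESeq2 1.42.0 on the recovered reads were alternatives, beside pseudocounts of 0.5 and 5, no minimum, a minimum of 50, quantile normalisation, TMM scaling, limma without the trend, leaving out each library, and a length and GC correction (mgcv 1.9.3, 17735 genes). The limma step was tested on simulated data. Exact permutation tests over 3 against 3 libraries cannot go below p = 0.1. The mice have separate numbers in the labels, but the columns carry only a group and a number, so columns were assigned by group. If libraries shared a litter, the p-values measure only the spread between these libraries.

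The 10 genes and all gene lists were chosen with earlier results of these data known. All 10 genes are named. From each other list at most 3 called genes with the largest change are named with values, except that all genes of the C1q-like and cerebellin, TRPC, polo-like kinase and tryptophan lists may be. Id2, Bcl11b and Akap7 are named without values. Some list results are not reported here. Gene IDs were matched to GENCODE M21 on GRCm38 (99.7% found, 84.8% with the same version).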

Additional observations from a re-analysis of the deposited data

How the results depend on the processing

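No paired analysis was possible because the labels give each animal a number of its own and the numbers in the column headers are not those of the animals. The number of granule cell genes called lower was 7, and 6 to 9 under the alternatives that kept all 6 libraries. Leaving out 1 library gave 4 to 8, with the lowest value both without air library 2 and without hyperoxia library 1, and 0 were called higher under every alternative run. The number whose groups did not overlap was 8 to 9 when 1 library was left out, beside 26.2% to 32.8% of all genes tested. Over all genes the same step gave 3056 to 7771 called and 1602 to 3931 called lower. With fewer libraries the test has fewer degrees of freedom. Every granule cell gene had a log2 fold change below 0 under all 16 alternatives. Over the single genes and their alternatives, 13 values kept the direction but lost the call (7 for Dsp, 3 for Tdo2 and 3 for Calb1) and 3 gained it (2 for Prox1 and 1 for Npnt). The length and GC correction called 9 of the 10 lower, all but C1ql3, beside 19.9% of all genes (15.6% without it), and the cause was not tested. The depth limits Plk5 and Tdo2 most, which rested on 87 to 230 and 119 to 261 reads per library.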
